A study of Saccharomyces cerevisiae with 4 samples.

Results

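The AAD genes of *Saccharomyces cerevisiae* form a family of 7 named members, *AAD3*, *AAD4*, *AAD6*, *AAD10*, *AAD14*, *AAD15* and *AAD16*, and their transcripts were followed here on 4 Affymetrix Yeast Genome 2.0 arrays. All probe sets that the array's probe table assigns to one of these symbols were taken, which gave 8 of the 10928 probe sets on the array and covered 5 of the 7 genes (5449 *S. cerevisiae* genes have a probe set in all). *AAD15* and *AAD16* have no probe set of their own in that table. *AAD15* was not analysed here, and *AAD16* cannot be told apart from *AAD6*, as described below. The family was chosen by the differences between RECQL5 and WT on these same arrays, so those differences are given as a description, without a test.

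All cultures were W303-1A, a MATa laboratory strain that carries the alleles ura3-1, trp1-1, ade2-1, can1-100, his3-11, 15 and leu2-3, 112, and were taken in mid-log growth in minimal medium with 2% glucose and no uracil. In WT, hybridized to 1 array, the cells held pCM189 without an insert. RECQL5 comprised 3 arrays, from cultures labelled as biological replicates, of cells with pCM189::RECQL5-FLAG, in which a tet promoter kept on by the absence of doxycycline drives the human RECQL5 helicase. Yeast has no ortholog of RECQL5, and the transcript of the human gene itself was not analysed here. Genes specific to a cells were present on every array (*MFA1*, *MFA2*, *STE2* and *BAR1* read 11.2 to 13.7), while *STE3* and *MF(ALPHA)1*, genes of alpha cells, read 5.81 to 7.96. The values are RMA levels on a log2 scale, with 1 value per probe set and array, and a difference of 1 on this scale is a change of 2-fold. WT was hybridized only once, so no spread between WT cultures can be given, and the study states that this array was standardized with published arrays in a way not given in the sources used here.

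AAD genes take their name from the aryl-alcohol dehydrogenase of the lignin-degrading fungus *Phanerochaete chrysosporium*, to which their products are similar. The proteins belong to the aldo-keto reductases, enzymes that use a nicotinamide cofactor to interconvert aldehydes and alcohols. Aromatic aldehydes and alcohols are the likely substrates of the family. *AAD4* and *AAD6* are known to be induced by agents that cause oxidative stress through Yap1, the transcription factor that senses peroxides and thiol-reactive compounds. Most AAD genes sit near chromosome ends, where related gene families are repeated.

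The reference gene table (assembly R64, from strain S288C) shows how far the members differ as genes. *AAD14* (YNL331C, 1131 bases) and *AAD3* (YCR107W, 1092 bases) are the longest coding genes of the family, *AAD4* (YDL243C) spans 990 bases and *AAD10* (YJR155W) 867 bases, and *AAD15* (YOL165C) keeps only 432 bases. *AAD6* (YFL056C, 1127 bases) is annotated as a pseudogene whose length is not a multiple of 3, and the table lists YFL057C, the frame otherwise called *AAD16*, as a synonym of it. The *AAD6* probe set can therefore not be assigned to one of these reading frames. All 6 annotated members lie close to an end of their chromosome. Between the gene and the nearer end the table holds 1 gene for *AAD3* on chromosome III and for *AAD15* on XV, 5 for *AAD4* on IV and *AAD10* on X, 6 for *AAD14* on XIV and 10 for *AAD6* on VI. The gene models are those of S288C, and the W303 sequence of these regions was not analysed here.

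In RECQL5 cells 7 of the 8 AAD probe sets read lower than in WT on each of the 3 arrays, as did 39.5% of the 5498 probe sets with an *S. cerevisiae* gene. Shares and medians of all probe sets given below are over these 5498 as well. The AAD differences ran from -3.08 for *AAD6* to 0.04 for *AAD14*. Taken on the mean, 4 probe sets for 3 genes (*AAD6*, *AAD4* and *AAD10*) were at least 1.5-fold lower and 0 were 1.5-fold higher. Of all 5498 probe sets with an *S. cerevisiae* gene, 8.80% were at least 1.5-fold lower by the same measure. The median difference of the 8 probe sets was -0.60, and that of all 5498 was 0.03. In bulk RNA, fewer cells with a transcript and less transcript per cell cannot be told apart.

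*AAD6* showed the widest difference. Its probe set, which is not marked as shared with other genes, read 10.52 in WT and 7.47, 7.19 and 7.65 in RECQL5 1, 2 and 3 (7.44 ± 0.23, SD, n = 3). The WT value stood 2.86 above the highest RECQL5 array, and the mean difference of -3.08 puts the WT level at 8.45-fold that of RECQL5. Only 2 of the 5498 probe sets had a lower difference, those of *OYE3* (-3.28), an NADPH oxidoreductase gene of the old yellow enzyme family, and of *GIT1* (-3.13), which encodes a transporter of glycerophosphoinositol. The next below *AAD6* in this order was *GTT2* (-2.81), a glutathione transferase gene.

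*AAD4* was read by 2 probe sets that both lay below WT and differed in size. The one marked as shared between genes read 12.62 in WT and 10.71, 10.55 and 11.04 in RECQL5 (10.77 ± 0.25, SD, n = 3), a difference of -1.85 or 3.60-fold. Which other genes it reads is not stated in the probe table, and transcripts of other AAD genes may contribute to it. The unshared probe set read 8.09 in WT and 6.80, 6.82 and 7.58 in RECQL5, a difference of -1.02 or 2.03-fold. RECQL5 3 lay well above the other RECQL5 arrays there, but still 0.51 below WT, and the SD of 0.45 was larger than that of 99.4% of all probe sets. Without RECQL5 3 the difference was -1.28. The mean differences of the 2 probe sets were 0.82 apart on the log2 scale.

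*AAD10* differed less and more evenly. Its unshared probe set read 10.83 in WT and 10.20, 10.14 and 10.30 in RECQL5 (10.21 ± 0.09, SD, n = 3), so that WT lay 0.53 above the highest RECQL5 array. The difference of -0.62 corresponds to 1.54-fold, close to the 1.5-fold line.

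For *AAD3* the 3 probe sets all lay below WT by less than 1.5-fold, the _x_at set just short of it. The unshared one read 7.71 in WT and 7.06, 7.34 and 7.20 in RECQL5 (difference -0.51). The shared _x_at probe set read 8.44 in WT and 7.72, 7.93 and 7.91 in RECQL5 (-0.58), and the shared _s_at probe set read 10.22 against 9.78, 9.87 and 9.79 (-0.41). WT lay above all RECQL5 arrays on each of them, by 0.51 on the _x_at, 0.38 on the unshared and 0.35 on the _s_at probe set.

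*AAD14*, one of the full-length members, stood apart from the others. It read 8.68 in WT and 8.63, 8.79 and 8.74 in RECQL5 (8.72 ± 0.09, SD, n = 3), and the WT value fell inside the RECQL5 range. The difference was 0.04, near the median of all probe sets, with 51.2% of probe sets lower in that order.

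**Figure D1:**
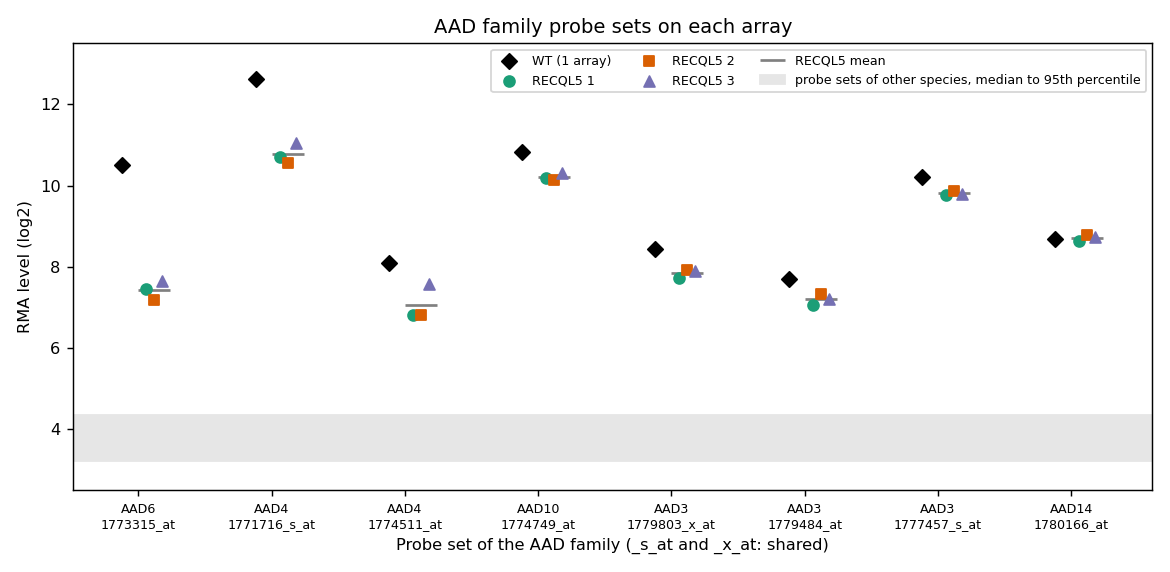
RMA level (log2) of each of the 8 AAD probe sets on the WT array (diamond) and on RECQL5 1, 2 and 3 (circle, square, triangle), with the RECQL5 mean as a grey line. The grey band, labelled as other species, is the median to 95th percentile of probe sets whose named gene the *S. cerevisiae* table does not hold. The WT point lies above all RECQL5 points for every probe set but that of *AAD14*, with the widest gap for *AAD6* (10.52 against 7.19 to 7.65).

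**Figure D2:**
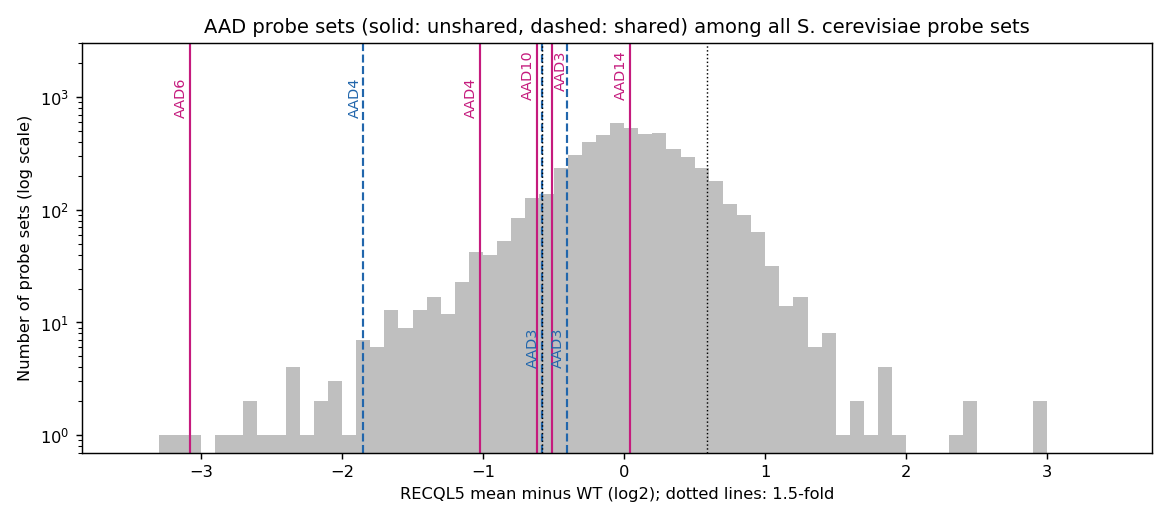
Number of *S. cerevisiae* probe sets (log scale) by RECQL5 mean minus WT (log2), with vertical lines for the AAD probe sets, solid for unshared and dashed for shared, and dotted lines at 1.5-fold. *AAD6* (-3.08) lies at the far lower end, *AAD4* at -1.85 and -1.02, *AAD10* and *AAD3* between -0.62 and -0.41, and *AAD14* (0.04) in the middle.

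Shared probe sets may also read genes other than the named one, so unshared and shared ones are given apart. The 5 unshared ones ran from -3.08 to 0.04 with a median difference of -0.62 and 3 at least 1.5-fold lower, and the 3 shared ones had a median of -0.58, with 1 at least 1.5-fold lower. When each RECQL5 array had to be 1.5-fold below WT, 2 probe sets were left, those of *AAD6* and the shared one of *AAD4*, while 6.35% of all probe sets met that condition.

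AAD readings also varied between the RECQL5 arrays, and with 1 array per culture, culture and array cannot be told apart. RECQL5 2 was the lowest array for *AAD6*, for *AAD10* and for the shared probe set of *AAD4*, and RECQL5 1 was the lowest for all 3 *AAD3* probe sets. RECQL5 3 lay nearest to WT for *AAD6*, *AAD10* and both *AAD4* probe sets, 4 of 8, where 29.9% of all probe sets had RECQL5 3 nearest. The SD between RECQL5 arrays was 0.23 for *AAD6* and 0.25 for the shared *AAD4* probe set, against a median of 0.07 over all probe sets. The unshared *AAD4* probe set had the 0.45 given above, and the other 5 probe sets varied by 0.05 to 0.14.

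Low signal limits part of these values. The array also carries probe sets for fission yeast, and the 1747 probe sets whose named gene the *S. cerevisiae* table does not hold had a median of 3.22 on WT and 95th percentiles of 4.29 to 4.35 on the 4 arrays, with single values up to 7.92. All 8 AAD probe sets lay above the 95th percentile on every array. The RECQL5 values of *AAD6*, of the unshared *AAD4* probe set and of the unshared *AAD3* probe set nevertheless lay within the range that single ones of the 1747 reached. For the unshared *AAD3* probe set the WT value (7.71) lay within it as well. The species of each of the 1747 was not checked. The study removed genes under a level of 600, 9.23 on the log2 scale, and on the mean over the 4 arrays 3 of the 8 probe sets passed it (shared *AAD4*, *AAD10* and the _s_at set of *AAD3*). *AAD6* was above that level in WT and below it on every RECQL5 array, and its mean of 8.21 left it out of the tested genes.

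Genes with enzymes or regulation related to the AAD family were compared with the fit over all tested genes (limma, adjusted p at most 0.1 and at least 1.5-fold). Of 4128 tested genes, 7.80% were called lower and 9.59% higher in RECQL5, the median difference was 0.02, and 48.1% lay below WT. These calls set the distance of the single WT array against the spread among RECQL5 arrays, and 63.8% of the tested genes passed the adjusted p alone, so an adjusted p under the threshold separates few genes from the rest. At the same stated fold and adjusted p the study reported far fewer changed genes in each direction, so the calls here are not the study's own. The lists were written with results of these data known, and they get no test as lists.

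Other aldo-keto reductase genes were lower as well, with 7 of 8 called lower, 0 called higher and a median of -0.95. *GCY1*, a glycerol dehydrogenase gene, fell from 12.32 in WT to 10.92, 10.69 and 10.55 in RECQL5 (-1.60 ± 0.14 SE, adjusted p = 0.00107, limma). The genes YDL124W (-1.10 ± 0.06, adjusted p = 0.000673), YJR096W (-1.07 ± 0.23, adjusted p = 0.013) and *GRE3* (-0.99 ± 0.07, adjusted p = 0.000869), which encodes the yeast aldose reductase, followed. *YPR1*, YPR127W and *ARA1* were the other called genes, with -0.91, -0.77 and -0.65. YPL088W, annotated as a putative aryl-alcohol dehydrogenase outside the AAD names, differed by -0.45 ± 0.08 and stayed under 1.5-fold.

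Among alcohol dehydrogenase genes and those of the Ehrlich pathway, which turns amino acids into fusel aldehydes and alcohols, the pattern was divided. Of 15 tested genes 4 were called lower and 0 higher, with a median of -0.34. Those called were *ADH4* (-1.89 ± 0.38, adjusted p = 0.0103, limma), *ADH5* (-1.67 ± 0.26, adjusted p = 0.00459), *BDH2* (-1.56 ± 0.24, adjusted p = 0.00458) and *SFA1* (-0.77 ± 0.06, adjusted p = 0.00104), the last a formaldehyde dehydrogenase gene that also acts on long-chain alcohols. The main fermentation genes *ADH1* (-0.07) and *PDC1* (0.01) lay near 0. *PDC5*, another pyruvate decarboxylase gene, lay above WT (0.55 ± 0.10, adjusted p = 0.00608), as did *ATF1* (0.28 ± 0.06, adjusted p = 0.0122), both under 1.5-fold. *ADH6*, whose NADPH-dependent product reduces aromatic aldehydes, differed by -0.44 ± 0.07 without reaching 1.5-fold. *ATF2*, an alcohol acetyltransferase gene, was under the level filter, and in the fit with no filter it rose from 7.31 to 9.15 (1.84 ± 0.08, adjusted p = 0.00155).

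Genes known to answer to Yap1 included *OYE3* and *GTT2*, which were among the 4 lowest of all differences together with *AAD6* and *GIT1* and were under the level filter. All 23 genes of this list lay below WT, 17 were tested and 6 of these were called lower, with a median of -0.54. *GRE2* (-2.40 ± 0.18, adjusted p = 0.000904, limma), a methylglyoxal reductase gene, and the transporter genes *ATR1* (-1.74 ± 0.09, adjusted p = 0.000673) and *FLR1* (-1.63 ± 0.07, adjusted p = 0.000617) led, followed by *GSH1* (-1.39 ± 0.11, adjusted p = 0.000904) of glutathione synthesis. The other called genes were *OYE2* (-1.03) and the thioredoxin gene *TRX2* (-1.02). *GRE2* read 11.70 in WT and 9.15, 9.17 and 9.58 in RECQL5. The tested genes that were not called ran from *TSA1* (-0.58) to *GSH2* (-0.18), with *TRR1* at -0.38 and *AHP1* at -0.29. Below WT refers to the RECQL5 mean here, since *SRX1* (-0.23, under the level filter) read 8.07 on RECQL5 1 and 8.04 in WT.

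With no filter on level, 11 genes of the Yap1 list were called lower, where 8.59% of the 5449 genes then tested were called lower and 10.3% higher. The 5 additional genes were *OYE3* (10.08 in WT and 6.81 in RECQL5, -3.28 ± 0.08, adjusted p = 0.00103, limma), *GTT2* (11.16 and 8.35, -2.81 ± 0.11, adjusted p = 0.00155), the nitroreductase-like genes *FRM2* (-1.35) and *HBN1* (-1.12), and *GPX2* (-1.23), a glutathione peroxidase gene. *YAP1* itself read 10.22 in WT and 9.99, 9.93 and 10.12 in RECQL5, a difference of -0.21 ± 0.09 that was not called (adjusted p = 0.105).

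**Figure D3:**
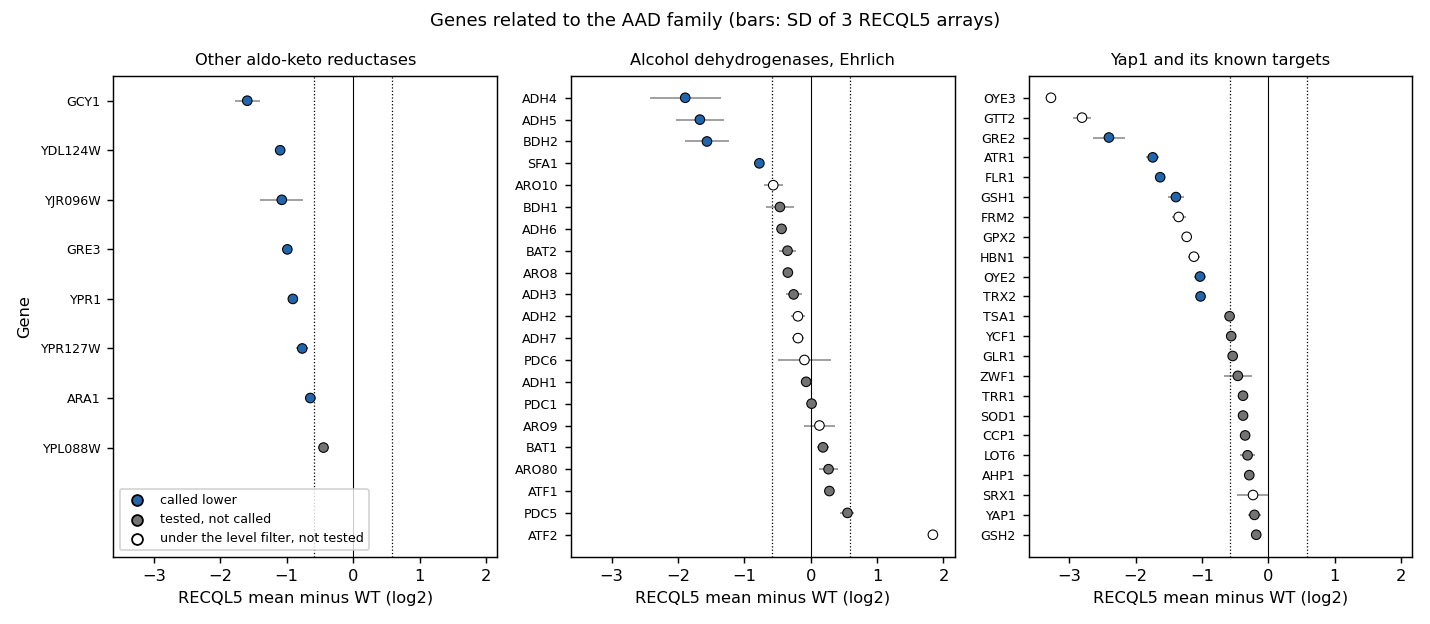
RECQL5 mean minus WT (log2) for each gene of the 3 related lists, with bars for the SD of the 3 RECQL5 arrays, blue points for genes called lower, grey for tested genes not called and white for genes under the level filter. All points of the aldo-keto reductase and Yap1 lists lie below 0, down to *OYE3* at -3.28, while *ATF2* stands at 1.84 in the alcohol dehydrogenase list.

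The neighbours of the AAD genes were examined because the family lies near chromosome ends. The 5 nearest genes on each side of the 6 annotated members gave 52 genes, of which 38 had a probe set and only 11 passed the level filter, with 3 called lower and 0 higher. The called genes were *RDS1* (-0.65 ± 0.06, adjusted p = 0.00118, limma), a zinc cluster transcription factor gene next to *AAD3*, and *SNZ3* (-0.97 ± 0.17, adjusted p = 0.00706) and *SNO3* (-0.63 ± 0.07, adjusted p = 0.00164), vitamin B6 genes on the outer side of *AAD6*. The probe sets of *SNZ3* and *SNO3* are shared with other genes, so their values cannot be assigned to that locus. Over all tested genes the shares given above were 7.80% lower and 9.59% higher, and with no filter 8.59% and 10.3%. Nothing is read from the neighbour counts against these shares.

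Genes on the inner side of *AAD6* did not show the difference of -3.08 that the member had. *AGP3* (-0.09), an amino acid permease gene, and *DAK2* (0.11), a dihydroxyacetone kinase gene, read near 0, though both were too low to be tested. Beside *AAD4*, *THI13* (shared probe set) and *GUD1* were called lower with no filter (-0.69 and -0.79), while YDL241W, a gene of unknown function, rose from 6.82 to 9.76 (2.94 ± 0.08, adjusted p = 0.00103, limma). *DAN4*, a cell wall protein gene near *AAD10*, was the third gene added to the lower calls without the filter (-0.92). *MPH2* (0.90), YCR101C (0.80) and *DDI3* (0.63) were added to the higher calls, of which *MPH2* and *DDI3* have shared probe sets. The inner neighbours of *AAD14*, from *RPD3* (-0.04) to *PFA3* (0.36), stayed under 1.5-fold as the member did, and its outer neighbours have no probe set of their own in the table.

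**Figure D4:**
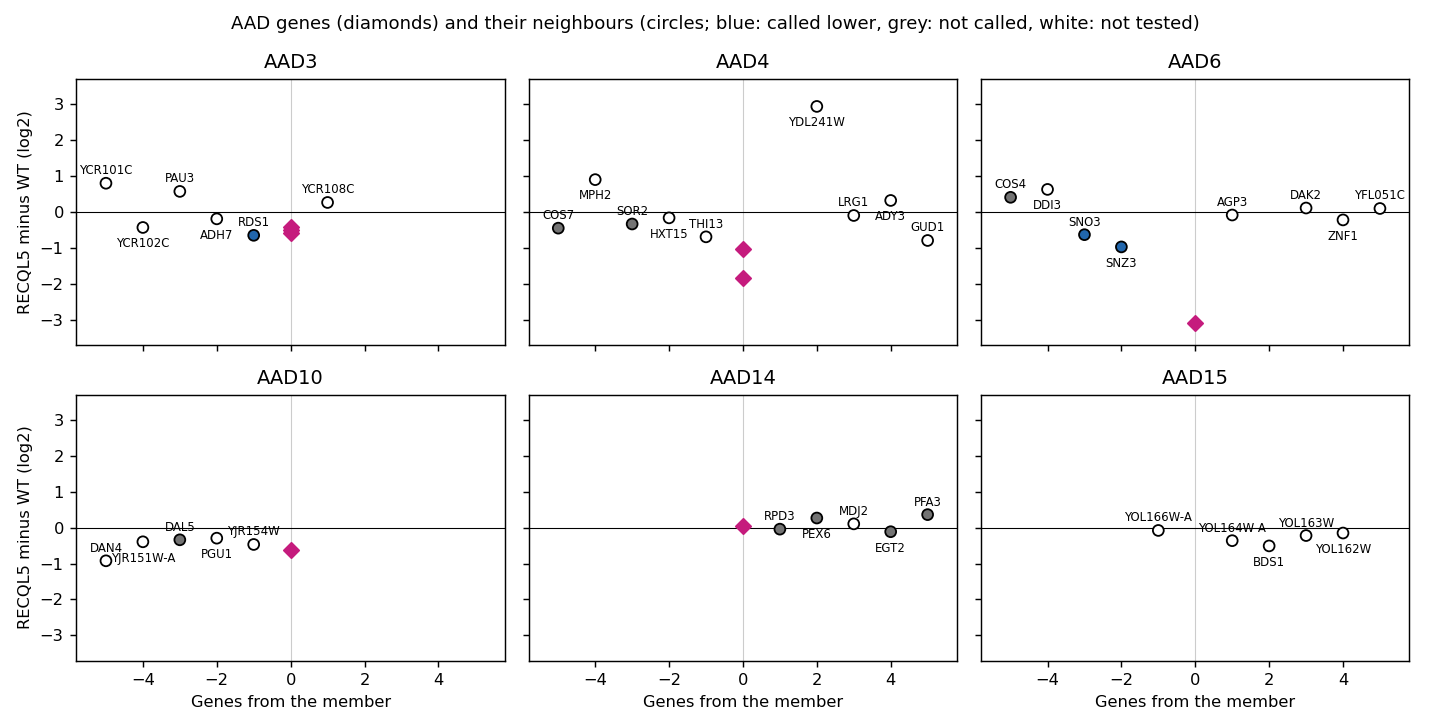
RECQL5 minus WT (log2) of each AAD gene (diamonds, 1 per probe set) and of the genes up to 5 places away on the same chromosome (circles, blue for called lower, grey for tested and not called, white for not tested), by number of genes from the member in the order of the gene table. *AAD6* at -3.08 and YDL241W at 2.94 lie far from their neighbours, and *AAD15* has no value of its own.

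The genes nearest to *AAD10* in pattern were found over the 3 RECQL5 minus WT differences, by the Euclidean distance between them among tested genes outside the family. *AAD10* was the reference because its unshared probe set had the highest mean over the 4 arrays. *NPL4* (distance 0.03), which encodes a cofactor of the Cdc48 segregase, came first. *HYR1* (0.03), a thiol peroxidase gene, the aldo-keto reductase gene *ARA1* (0.05), *CAX4* (0.07) and *DRE2* (0.07) followed. Their mean differences lay between -0.65 and -0.60, beside -0.62 for *AAD10*. The 3 differences share the single WT value, and these distances are smaller than the SD of *AAD10* between RECQL5 arrays (0.09). Which genes came nearest, and in what order, therefore has no weight. For *AAD6*, a reference chosen after its values were seen, no tested gene was as near as these were to *AAD10*. The closest tested gene was the small heat shock protein gene *HSP26* (-2.75) at a distance of 0.60. In it RECQL5 2 was lowest and RECQL5 3 nearest to WT, as in *AAD6*. Next came *LYS9* at 1.08 and *GRE2* at 1.19. Genes under the level filter were not searched, which left out *OYE3* (-3.28) and *GTT2* (-2.81), although *AAD6* is under that filter too. How isolated *AAD6* is among all genes can therefore not be read from this search.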

How the data were processed

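Total RNA of 4 cultures was hybridized to Affymetrix arrays, 1 sample per array. The authors deposited log2 values made by RMA (background correction, quantile normalization, median polish), and the submitters' notes name RMA and limma with no version. Whether the WT values come before or after their standardization with published arrays is not stated. Source names of RECQL5 2 and 3 end in other digits than RECQL5, while titles and strain fields name RECQL5, and groups follow the titles. Medium and plasmid are given as labelled. The study describes selective synthetic complete medium for these arrays and, for other experiments, names another empty tet plasmid. Where nothing but the labels says that cultures were separate, p-values measure the spread between these samples only.

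Of the 10928 probe sets, 5498 had 1 *S. cerevisiae* gene (5449 genes). Gene names came from the R64 table through gene identifiers, and no coordinates are printed because the values name no build. For a gene with several probe sets the one of highest mean was kept, and genes with a mean of at least log2(600) were tested with limma 3.58.1 in R 4.3.3 (lmFit, eBayes, two-sided, Benjamini-Hochberg over 4128 genes, 2 residual degrees of freedom, the lone WT array assumed to vary like RECQL5). Tested on simulated data of 4128 genes for RECQL5 against WT, the fit recovered 45.7% of 1.5-fold, 95.1% of 2-fold and 98.6% of 4-fold changes. The simulated WT array was drawn with the mean and SD of the RECQL5 arrays, and 200 genes were changed per run. A call also needed an observed change of at least 1.5-fold, which draws around a true 1.5-fold change often miss. The simulation holds no offset of the WT culture or array, so these shares do not describe how the fit performs on the real arrays.

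Members and lists were chosen with earlier results of these data known. Named genes were all members, up to 4 called genes of each list with the largest change, *YAP1*, up to 10 called neighbours and the 5 genes nearest in pattern to the unshared member probe set with the highest mean. *GIT1*, *YPR1*, YPR127W, *ARA1*, YPL088W, *ADH1*, *PDC1*, *PDC5*, *ATF1*, *ADH6*, *OYE2*, *TRX2*, *TSA1*, *GSH2*, *TRR1*, *AHP1*, *HSP26*, *LYS9*, and list genes and neighbours under the level filter were named after their values were seen. SE is the standard error of the fit and SD the standard deviation over RECQL5 arrays. The number of arrays limits the precision.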

Additional observations from a re-analysis of the deposited data

How the results depend on the processing

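AAD differences moved by less than 1 SD of the RECQL5 arrays when arrays were centred on their medians and after cyclic loess, except that cyclic loess took the _s_at probe set of *AAD3* from -0.41 to -0.46. Cyclic loess turned the difference of *AAD14* from 0.04 to -0.01, both near 0. Leaving out 1 of 3 replicates cannot move a mean by 1 SD, so that measure says nothing of stability there. It moved the unshared *AAD4* difference most, from -1.02 to -1.28 without RECQL5 replicate 3. The count of AAD probe sets at least 1.5-fold lower was 4, and it was 5 after centring, after cyclic loess and without RECQL5 replicate 3, with the _x_at set of *AAD3* added. Without RECQL5 replicate 2 it was 4 again, but *AAD10* (-0.58) fell short of 1.5-fold and the _x_at set of *AAD3* (-0.62) passed it. At 2-fold it was 3, over unshared probe sets 3, and with each RECQL5 array past the fold 2.

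With no filter on level the Yap1 list had 11 genes called lower against 6 (10 when the level was applied to the WT array alone), neighbours had 6 lower against 3 and 4 higher against 0, and the alcohol dehydrogenase list had 1 higher against 0, since genes under the level were then tested. With shared probe sets left out, 1 neighbour (*RDS1*) was still called lower. The alcohol dehydrogenase list had 0 to 1 genes called higher when 1 RECQL5 replicate was left out, the 1 without replicate 1. All other counts stayed within 1.5 times. At an adjusted p of at most 0.01 YJR096W and *ADH4* were no longer called. No paired analysis was possible because the groups share only replicate number 1, and WT cannot be left out. The planned search of promoters for Yap1 motifs was not run, since no promoter sequence was given. The single WT array limits every difference, and a trait of that culture cannot be told apart from the effect of RECQL5.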
